A study of Mus musculus with 6 samples.

Results

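The third replication of an experiment on mIMCD3 cells, an epithelial line from the mouse inner medullary collecting duct, was compared with the other two. Its members were chosen by their titles and are 2 arrays, 1 of cells given vehicle and 1 of cells given aldosterone, out of 6 in all. The 4 other arrays hold the same pair of treatments from replications 1 and 2. Cells were exposed for 1 h, and the labels say only that the experiment was repeated, so each p-value is set by the variation among 6 arrays that stand for 1 repeat of the experiment against 2. The dose of hormone is not given in the sources used here. Culture, RNA preparation and hybridisation of a replication cannot be told apart.

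The inner medullary collecting duct is the last segment of the renal tubule, where the final salt and water content of urine is set. Its cells are sealed to each other by tight junctions, whose claudins decide which ions and how much water can leak between the cells, and they carry simple-epithelium keratins. Tubule cells also make chemokines and the iron-carrier-binding protein lipocalin-2 when the transcription factor NF-kB is active, and serum, stretch or injury switches on immediate early genes within minutes. Aldosterone acts on these cells through corticosteroid receptors and raises sodium reabsorption.

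The values are array intensities in arbitrary units, 1 per probe set, after every array was scaled to the same 2% trimmed mean. The aldosterone array of replication 3 stood apart before scaling: its trimmed mean was 86.5 against 2488 to 2493 on the other 5 arrays. Scaling brought the array medians to 747 to 843, but the smallest step between stored values was 2.42 on this array and 0.084 on the others, so its dim values are coarser. Log2 values of the 2 arrays of replication 3 correlated at r = 0.976 across tested probe sets. The pairs within replications 1 and 2 gave 0.973 and 0.962, and arrays of different replications gave 0.936 to 0.958. Keratins 8 and 18 (Krt8 and Krt18) and kidney cadherin Cdh16 were bright on every array, as the labelled cell type has them. The water channel Aqp2, the vasopressin receptor Avpr2 and Hsd11b2, which inactivates glucocorticoids, were too dim to be tested, with scaled intensities of 101 to 762 for Aqp2.

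The genes that passed the test were few and all lower in replication 3. In a limma fit with treatment and an indicator of replication 3, 6 of 7453 tested probe sets passed an adjusted p of 0.05, all of them lower in replication 3 (0.0805% of those tested, against 0% higher). They read out claudin-4 (Cldn4), claudin-7 (Cldn7), Lcn2, Adam28, Pla2g4f and a transcript with no gene name. Before adjustment, 1128 probe sets had a p under 0.05, 561 higher and 567 lower. When the replication entered as a block of 3 levels, which takes the difference between replications 1 and 2 out of the error and leaves only the spread within replications there, 444 probe sets passed, 226 higher (3.03%) and 218 lower (2.92%). In the same fit, 286 probe sets passed between replications 1 and 2. Replication 3 against 1 gave 271 and replication 3 against 2 gave 464. Replications 1 and 2 thus also differed from each other. Without limma's intensity trend neither fit made a call (1024 and 1480 probe sets before adjustment), and without the vehicle or aldosterone array of replication 1 the block called 40 or 50. The calls of the treatment fit rest on both members: with its vehicle or its aldosterone array left out, 0 probe sets passed limma's adjusted threshold (431 and 439 before adjustment). Without the aldosterone array of replication 2 the count was also 0 (1010 before adjustment).

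The promoters of Cldn4 and of the cytokine genes Cxcl1, Cxcl2, Csf1 and Ltb are printed here. These genes were low in replication 3 on both arrays, as were others not shown, such as Lcn2, Cldn7, Ccl2 and Plk2. Those printed were picked by hand, and each window shown holds a match to the motif marked in it. The first 3 cytokines are in the NF-kB list and Ltb is not. The sequences are RefSeq's for GRCm38.p6, each ends at the base before the annotated start, and all are read on the strand of the gene. In Cldn4, capitals mark matches to TGANTCA, the form bound by Jun and Fos proteins. In the others, capitals mark matches on either strand to GGG, any 3 bases and TTCC, the form bound by NF-kB, and matches on opposite strands overlap in Cxcl1 and Cxcl2.
Cldn4, chr5:134946935-134947184, minus strand: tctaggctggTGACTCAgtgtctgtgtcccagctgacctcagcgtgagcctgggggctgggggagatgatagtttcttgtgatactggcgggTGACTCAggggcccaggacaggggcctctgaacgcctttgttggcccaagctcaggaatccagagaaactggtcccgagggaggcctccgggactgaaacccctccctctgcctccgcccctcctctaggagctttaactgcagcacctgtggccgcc
Cxcl1, chr5:90891085-90891244, plus strand: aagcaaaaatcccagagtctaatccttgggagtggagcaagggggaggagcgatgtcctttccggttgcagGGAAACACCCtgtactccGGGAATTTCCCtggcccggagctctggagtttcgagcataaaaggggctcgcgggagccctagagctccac
Cxcl2, chr5:90903739-90903898, plus strand: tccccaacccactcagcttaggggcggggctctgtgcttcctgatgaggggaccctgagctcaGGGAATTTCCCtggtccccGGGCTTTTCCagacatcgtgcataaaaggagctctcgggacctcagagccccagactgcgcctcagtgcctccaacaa
Csf1, chr3:107760470-107760629, minus strand: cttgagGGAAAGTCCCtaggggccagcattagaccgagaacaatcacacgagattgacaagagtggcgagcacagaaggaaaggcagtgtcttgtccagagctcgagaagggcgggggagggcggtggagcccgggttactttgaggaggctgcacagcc
Ltb, chr17:35194347-35194506, plus strand: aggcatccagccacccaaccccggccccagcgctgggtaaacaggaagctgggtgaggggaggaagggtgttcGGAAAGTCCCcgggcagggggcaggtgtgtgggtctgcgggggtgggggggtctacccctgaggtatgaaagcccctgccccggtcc
Over the 250 bases before the start, TGANTCA occurred on either strand in 6.75% of 32851 mouse promoters and the NF-kB form in 4.65%. Of the 17 tested genes of the NF-kB list with a promoter in the table, 8 held the NF-kB form (47.1%) and 4 held TGANTCA (23.5%). That list is of genes under NF-kB, so its share of the NF-kB form does not depend on what replication 3 read. A gene counted if any of its promoters matched, so shares of genes and of promoters are not on the same footing. For the epithelial list the corresponding numbers were 2 of 19 for the NF-kB form (10.5%) and 1 of 19 for TGANTCA (5.26%). The gene with TGANTCA was Cldn4, the only epithelial promoter printed here, and 6.75% of all promoters held that form. Of 27 immediate early genes with a promoter, 1 held the NF-kB form and 1 held TGANTCA (3.7% each). A match is a description of the letters and does not show that a factor binds there.

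Cldn4, a claudin of the collecting duct whose loss alters chloride permeability, had scaled intensities of 11069 with vehicle and 12671 with aldosterone in replication 1. It read 9189 and 11422 in replication 2, and 2713 and 2156 in replication 3. The groups did not overlap, and the lowest of the other arrays was above 3 times either array of replication 3. Its log2 difference was -2.16 (SE 0.164), 4.48-fold lower, with a limma adjusted p of 0.00632 and 1.4e-04 with the replicate block. With only the vehicle array of replication 3 the log2 difference of Cldn4 was -1.87, and with only the aldosterone array it was -2.45 (limma adjusted p = 0.147 and 0.074).

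Cldn7, which is found at tight junctions and on lateral membranes, read 4435 and 4303 in replication 1 and 5337 and 5443 in replication 2, vehicle first. In replication 3 its intensities were 1574 and 1857. Every array of replication 3 was below all others, and the log2 difference was -1.48 (SE 0.163; limma adjusted p = 0.0302, and 6.4e-04 with the replicate block). This probe set is of a kind that can match several members of a gene family. Claudin-3 (Cldn3) read 3111, 3298, 2412 and 2832 in replications 1 and 2 and 1529 and 1458 in replication 3, again without overlap. Its log2 difference of -0.93 did not pass the treatment fit (limma adjusted p = 0.12) and passed with the block (0.0119). Occludin (Ocln), another tight junction strand protein, was too dim to be tested and read 295 to 640 in replications 1 and 2 and 47.9 and 131 in replication 3.

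**Figure D1:**
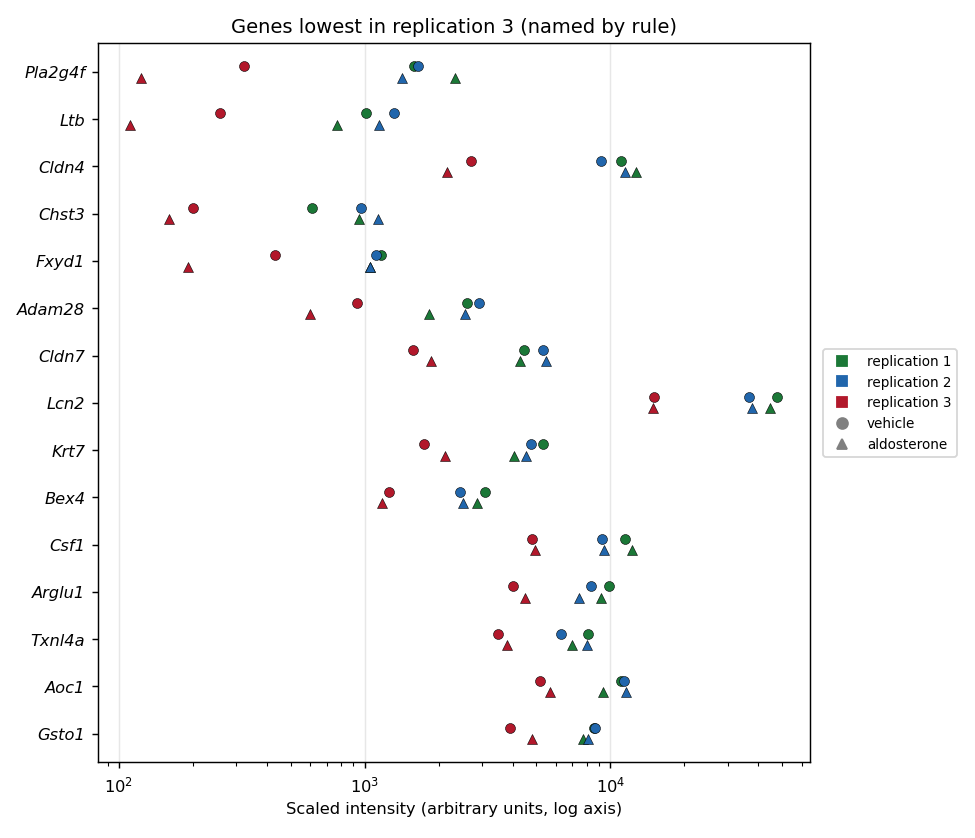
Scaled intensity (arbitrary units, log axis) of the 15 genes named as lowest in replication 3, 1 point per array, coloured by replication and shaped by treatment. For each gene both red points lie to the left of the 4 others, as the naming rule required, and Cldn4 reads 2713 and 2156 against 9189 to 12671.

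Lcn2, the secreted lipocalin-2 that is released by injured tubules, was among the brightest transcripts. Its intensities were 47691 and 44771 in replication 1, 36536 and 37626 in replication 2, and 15077 and 14938 in replication 3. The arrays of replication 3 differed from each other by far less than from the rest. They come from the same replication, so their closeness does not measure the spread between repeats of the experiment. The log2 difference of Lcn2 was -1.46 (SE 0.134; limma adjusted p = 0.0101, and 7.0e-05 with the block). A dim second probe set of Lcn2 gave -0.06. Krt7, a keratin of simple ducts, read 5337, 4067, 4751 and 4535 against 1741 and 2123 in replication 3. It narrowly missed the threshold of the treatment fit at a log2 difference of -1.25 (limma adjusted p = 0.0549, and 0.00435 with the block).

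Pla2g4f, a cytosolic phospholipase A2 that frees fatty acids from membrane lipids, had the largest log2 difference of the 6, -2.78 (SE 0.341; limma adjusted p = 0.0430). It read 1583, 2325, 1655 and 1419 in replications 1 and 2 and 323 and 123.3 in replication 3. At these levels the coarser steps of the aldosterone array matter more, and with the vehicle array alone the difference of Pla2g4f was -2.15. Both of its values in replication 3 were below the level of the filter on dim probe sets (an intensity of 414), so it passed the filter only through replications 1 and 2 and had to differ, and a stricter filter left it out. Adam28, a membrane metalloprotease, read 2608, 1824, 2908 and 2555 against 934 and 597 (log2 difference -1.64; limma adjusted p = 0.0430). The probe sets of Pla2g4f and Adam28 are of a kind made under relaxed design rules. With the vehicle array of replication 3 alone, the differences of Lcn2, Cldn7 and Adam28 were -1.47, -1.60 and -1.51 (limma adjusted p = 0.397, 0.433 and 0.716). The unnamed transcript, probe set 160651_at, read 4359, 3876, 3508 and 3550 in replications 1 and 2 against 792 and 950 in replication 3 (log2 difference -2.07; limma adjusted p = 0.00632).

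The other genes named as lowest fell short of the treatment fit's threshold and passed with the block. Csf1, the growth factor of macrophages, read 11423, 12234, 9265 and 9433 against 4790 and 4917 (log2 difference -1.11; limma adjusted p = 0.0549). Ltb, a membrane-bound cytokine of the TNF family, read 1008, 773, 1316 and 1147 against 258 and 111 (-2.28; limma adjusted p = 0.0618). Both are secreted or surface signals to leukocytes. Aoc1, which degrades histamine and diamines, differed by -0.99, the glutathione transferase Gsto1 by -0.93 and the spliceosome protein Txnl4a by -0.997. Log2 differences of -1.01 for Arglu1, -1.13 for Bex4, -2.03 for the chondroitin sulfotransferase Chst3 and -1.74 for Fxyd1, a regulator of the sodium pump, completed them, with limma adjusted p from 0.0549 to 0.0991. Ltb and Chst3 on both arrays of replication 3, and Fxyd1 on 1, were below the filter level, so these genes too entered the test through replications 1 and 2 and had to differ.

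Most probe sets differed the same way under both treatments. Across the 7453 tested probe sets, the difference of replication 3 among the vehicle arrays and that among the aldosterone arrays had a Pearson r of 0.471, and 69.1% had the same sign. The 2 measures share no array but come from the same 3 replications, so this is a description across probe sets, which are not independent replicates. Without any fit, 1077 probe sets had both arrays of replication 3 below the other 4 (14.5%) and 1233 had both above (16.5%). These shares grew with brightness, from 11.6% below and 10.7% above in the dimmest of 4 equal bins of tested probe sets to 18.1% and 20.2% in the brightest.

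**Figure D2:**
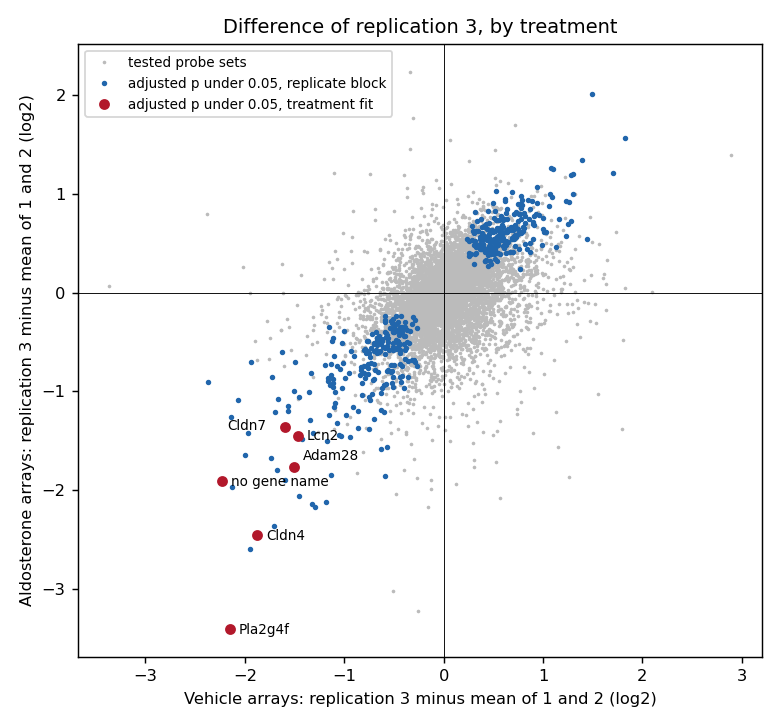
Log2 difference of replication 3 from the mean of replications 1 and 2 among vehicle arrays (horizontal) and aldosterone arrays (vertical), 1 point per tested probe set. Red points passed the fit with treatment, blue points passed with the replicate block, and the 6 red points all lie at the lower left.

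The collecting duct and epithelial list as a whole held 25 tested genes of 35 on the array. The treatment fit called 3 of them lower, Cldn4, Cldn7 and Lcn2. With the block 5 were lower, Krt7 and Cldn3 being added, and 1 was higher, the desmosome protein desmoplakin (Dsp, log2 difference 0.35). Among all 5640 tested genes the block called 2.85% lower and 3.24% higher, and the block counts of every list below are to be read beside these shares. The list's median log2 difference was -0.25, beside 0.01 over all tested genes, and 10 of its genes had both arrays of replication 3 below the rest (40%) against 14.8% of all tested genes, while 1 had both above against 17.3%. With the vehicle array of replication 3 alone, 13 of the 25 lay below the rest (23.1% of all genes) and 4 were called lower by the block. With the aldosterone array alone, 12 lay below (25.2% of all genes) and 6 were called.

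Not all epithelial genes were low. Kidney cadherin Cdh16 differed by 0.04, Pax8, a transcription factor of the renal epithelium, by -0.08, beta-catenin (Ctnnb1) by 0.07 and Krt18 by -0.10. Krt8 and Krt19, the other simple-epithelium keratins, lay below the rest on both arrays at log2 differences of -0.31 and -0.33, with limma adjusted p of 0.0727 and 0.0583 even with the block. Epcam, a surface adhesion protein that binds Cldn7, read 1432, 1205, 844 and 1178 against 666 and 684, with a log2 difference of -0.72 that passed neither fit (limma adjusted p = 0.258, and 0.104 with the block). In RNA from whole cultures, fewer cells of a type and less RNA per cell cannot be told apart.

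Most markers of other cell types were too dim to be tested. The leukocyte list had 12 tested genes of 32 on the array, whose intensities summed to 12867 to 16749 in replications 1 and 2 and to 11899 and 10753 in replication 3, and its defining gene Ptprc read between 7.96 and 225 over its 3 probe sets. With the block, the monocyte receptor Cd14 was called lower and no leukocyte gene was called higher. Of 10 tested fibroblast genes none was called in either fit (median log2 difference 0.24), and their sums were 13935 to 18591 in replications 1 and 2 and 17796 and 16096 in replication 3. The endothelial list had 3 tested genes, of which Sox18 was called lower with the block, with both arrays of replication 3 below the filter level. Sox18 thus entered the test through replications 1 and 2 and had to differ. The sums of the endothelial list were 1944 to 3186 in replications 1 and 2 and 2385 and 1310 in replication 3. None of 6 proximal tubule genes or 3 intercalated cell genes was called. The sums were 4095 to 7027 against 4514 and 3972 for the first and 6373 to 8064 against 5925 and 5686 for the second. The part of these markers in the epithelial differences was not tested.

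**Figure D3:**
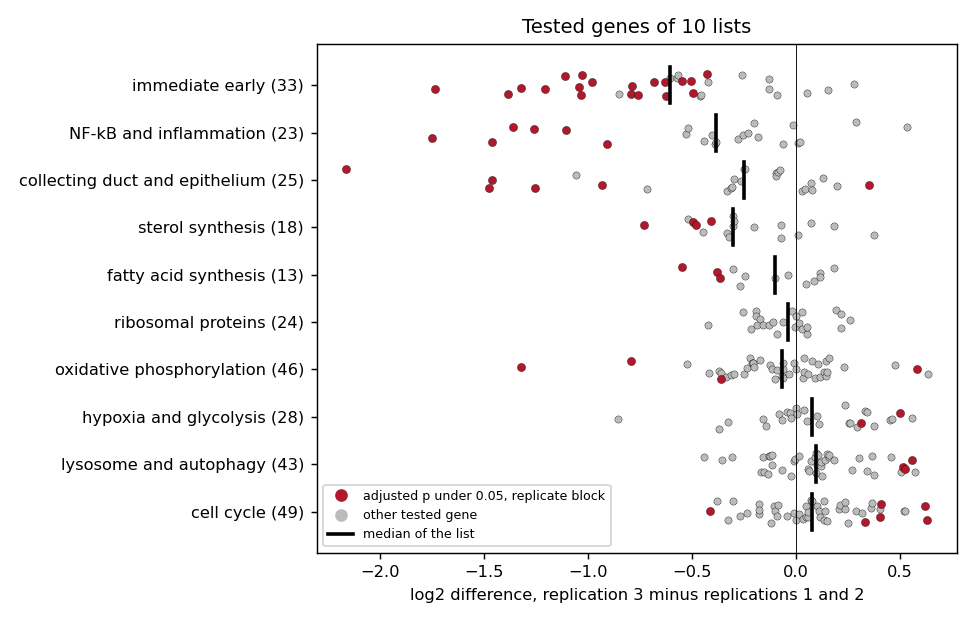
Log2 difference of replication 3 from replications 1 and 2 for the tested genes of 10 lists, 1 point per gene, with the number of tested genes in brackets and a black bar at the list's median. Red points had an adjusted p under 0.05 with the replicate block; the bar lies at -0.61 for immediate early genes and at 0.08 for cell cycle genes.

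Some genes under NF-kB were lower in replication 3 with the block. The list held 23 tested genes of 36 on the array, with a median log2 difference of -0.39. The treatment fit called 1 of them lower, Lcn2, which the epithelial list also holds, and the block called 6 lower and 0 higher, namely Cxcl2, Lcn2, Cxcl1, Ccl2, Csf1 and Nfkbia. Both arrays lay below the rest for 10 of the 23 (43.5%, against 14.8% of all tested genes) and above for 2 (8.70%, against 17.3%). Either array of replication 3 alone gave 13 below (56.5%, against 23.1% of all tested genes for the vehicle array and 25.2% for the aldosterone array) and 6 called by the block.

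Among the chemokines, Cxcl1, which draws neutrophils, read 38429 and 38168 in replication 1, 17908 and 20459 in replication 2, and 8821 and 12564 in replication 3. Its log2 difference was -1.36, with -1.82 at a second probe set (limma adjusted p = 0.163 and 0.161, and 4.9e-04 and 1.0e-04 with the block). Replications 1 and 2 thus differed from each other as well, and replication 3 was the lowest. Cxcl2, its close relative, read 3284, 3765, 1189 and 1124 against 621 and 515, a log2 difference of -1.75 (limma adjusted p = 0.191, and 0.00251 with the block). Ccl2, which draws monocytes, read 40928, 42157, 20513 and 24618 against 10524 and 15465 (log2 difference -1.26; limma adjusted p = 0.161, and 6.2e-04 with the block). Nfkbia, the inhibitor of NF-kB that NF-kB itself induces, differed by -0.91 at 1 probe set and by 0.12 at another, so that the probe sets of this gene disagree. The NF-kB subunit genes Rela, Relb and Nfkb2 were not called in either fit.

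Immediate early genes formed the list with the largest share of block calls. Of 33 tested genes of 36 on the array, 0 passed the treatment fit and 19 passed with the block, all lower, and 30 were lower under both treatments. The median log2 difference was -0.61; both arrays lay below the rest for 15 genes (45.5%, against 14.8% of all tested genes) and above for 1 (3.03%, against 17.3%). Of the genes called with the block, Dusp6, Egr1, Klf6, Gadd45g, Dusp1, Ier3, Errfi1, Jund, Atf3 and Rhob were not among these 15. For Atf3 the means were 8850, 4495 and 4486 in replications 1, 2 and 3. The list's median was -0.996 for replication 3 minus 1 and -0.24 for replication 3 minus 2, while replication 1 minus 2 gave 0.87, contrasts that share arrays. The median gap of replication 3 was thus larger to replication 1 than to replication 2. Plk2, a kinase induced by serum, read 29527 and 23833, then 12592 and 13295, and then 5996 and 5094, from replication 1 to 3. Its difference was -1.74 (SE 0.335; limma adjusted p = 0.127, and 1.0e-04 with the block).

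The growth regulator Myc read 3319 and 2976 in replication 1, 991 and 1257 in replication 2, and 581 and 815 in replication 3 (log2 difference -1.38). For Egr1, a zinc finger factor of the serum response, the intensities were 14370 and 9794, then 2966 and 3510, and then 2964 and 3276. The arrays of replications 2 and 3 overlapped for Egr1, so the difference of -0.98 comes from replication 1. The AP-1 subunits Jun, Junb and Fos differed by -1.21, -1.04 and -1.04, and Dusp6, a phosphatase that switches off ERK, by -1.32. In the treatment fit, where the spread between replications 1 and 2 counts as error, the limma adjusted p of these genes ran from 0.214 to 0.463. With the vehicle array of replication 3 alone the block called 11 immediate early genes lower (85 of all 5640 genes), and with the aldosterone array alone 12 (96 of all).

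**Figure D4:**
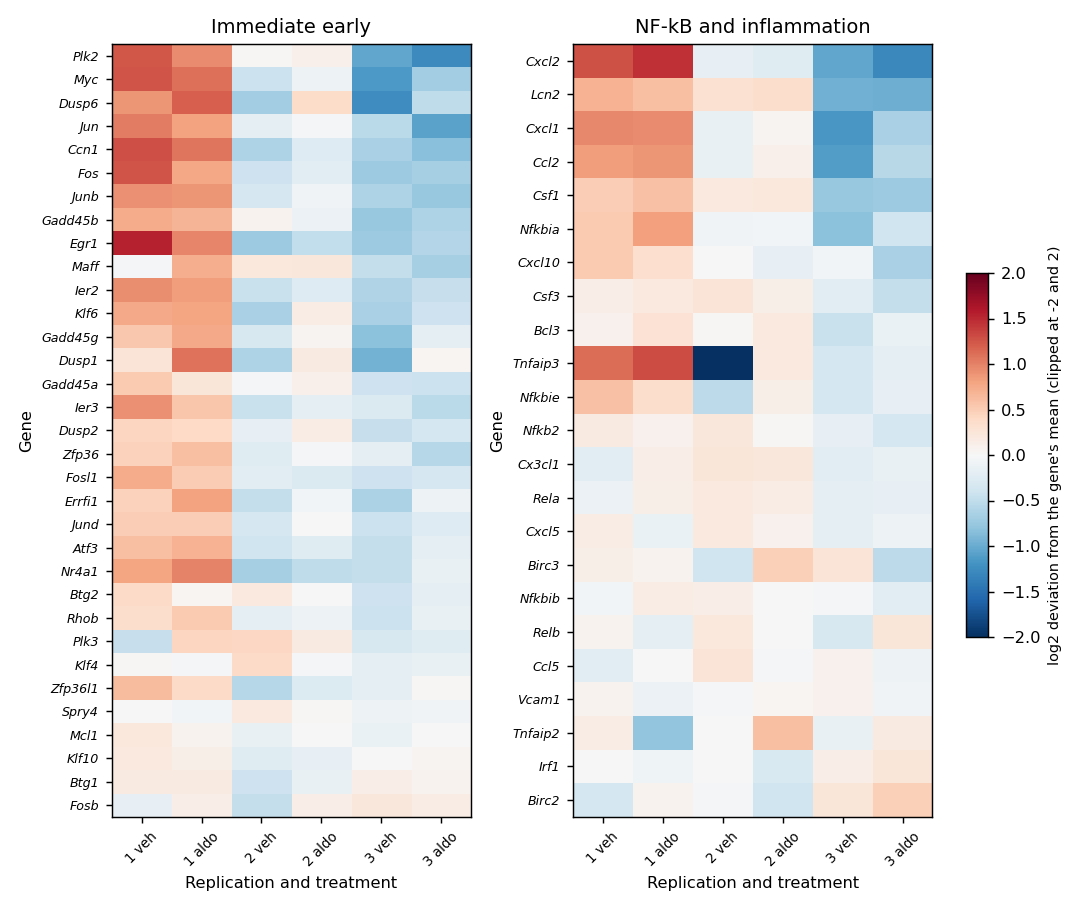
Log2 deviation of each array from the gene's mean over the 6 arrays, for the tested genes of the immediate early and NF-kB lists, ordered by the difference of replication 3; veh is vehicle and aldo aldosterone, and colours stop at -2 and 2. Replication 1 is red for most of the upper genes and both columns of replication 3 are blue, as for Plk2 and Cxcl2.

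The list of matricellular and other genes tied to SRF and YAP, factors of the actin skeleton and cell spreading, had 15 tested genes. With the block 5 were lower (33.3%, against 2.85% of all tested genes) and 1 was higher (6.67%, against 3.24%). Ccn2, a secreted growth factor modulator, read 20055 and 27241 in replication 1, 5378 and 13043 in replication 2, and 2340 and 4782 in replication 3. Its log2 difference was -2.05 (SE 0.478; limma adjusted p = 0.161, and 3.6e-04 with the block), and on each array of replication 3 it was below all others, while in each replication the aldosterone array read higher than the vehicle array. Ccn1, F3, Hbegf and Ankrd1 were the other 4 called. Hbegf read 4664 and 5061 in replication 1, 1738 and 1411 in replication 2, and 1821 and 1303 in replication 3, so replications 2 and 3 overlapped and replication 1 was the high one. For F3 these replications overlapped too, with 5396 and 8842 in replication 2 and 4693 and 5623 in replication 3. The kinase Lats2, which restrains YAP, was the higher gene (0.45). The list of matrix and TGF-beta genes had no common direction: of 35 tested 18 had a log2 difference above 0, and the median was 0.04. The block called 3 lower (8.57%) and 2 higher (5.71%). The lower ones were the BMP targets Id1 and Id3 (-0.70 and -0.86) and the laminin chain Lamb1 (-0.57 at its brighter probe set, -0.13 at the other). The higher ones were the collagen chain Col4a2 (0.48) and the growth factor Bmp7 (1.75). Bmp7 read 326, 155, 288 and 444 against 957 and 1247, and 3 of its 4 lower values lay below the filter level. It passed the filter only through replication 3, where it was high, and had to differ.

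Some enzymes of sterol synthesis were lower with the block. Of 18 tested genes 14 had a log2 difference below 0, with a median of -0.30, and 10 had both arrays of replication 3 below the rest (55.6%, against 14.8% of all tested genes) and 0 had both above. The block called 4, Lss, Msmo1, Fdps and Sqle, and the treatment fit called 0. Fdps, which makes farnesyl diphosphate, read 36761, 37163, 44225 and 47409 against 28816 and 30161 at its brighter probe set, a difference of -0.48. Hmgcs1, an early enzyme of the same pathway, differed the other way at 0.38 and was not called. With either array of replication 3 alone, 10 sterol genes lay below the rest (55.6%, against 23.1% of all tested genes for the vehicle array and 25.2% for the aldosterone array), and the block called 1. In fatty acid synthesis the block called 3 of 13 lower, Srebf1, which switches these enzymes on, and the enzymes Fasn and Acly, at -0.55, -0.38 and -0.37.

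Of the higher transcripts in replication 3, 0 passed the treatment fit. Eloc, a subunit of elongin and of ubiquitin ligases, read 13242, 13875, 11765 and 12890 in replications 1 and 2 and 20355 and 23326 in replication 3 (log2 difference 0.75, SE 0.108; limma adjusted p = 0.0636, and 0.00251 with the block). Its other probe sets gave 0.37 and 0.51 and were not called with the block (limma adjusted p = 0.0537 and 0.0528). Brca1, which acts in DNA repair, read 5020, 4376, 4287 and 4079 against 7807 and 7900 (0.82; limma adjusted p = 0.0941, and 0.00563 with the block). The groups overlapped for neither gene, as the naming rule required.

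Several of the higher genes were not matched by their other probe sets. Sar1b, a GTPase of vesicle coats, rose by 0.81 with the block at 1 probe set and differed by 0.05 at another. For Sugt1, a co-chaperone, the values were 1.08 and -0.15, and for the mitochondrial protein Ghitm 0.78 and 0.07. Pbrm1, a subunit of a chromatin remodelling complex, gave 1.46, 1.24, 0.56 and -0.22 at its 4 probe sets, of which the block called 3. Zhx1, a zinc finger and homeobox protein, gave 0.77 at the probe set called and -0.43 at another, and Rnf13, a ubiquitin ligase, 0.91 and 0.34, the second not called. The remaining genes of this set were Cd164, Eif3m, Csrp2, Rcor1, Sdc2, Etnk1 and Tm7sf3, with log2 differences of 0.69 to 0.86, all called with the block.

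**Figure D5:**
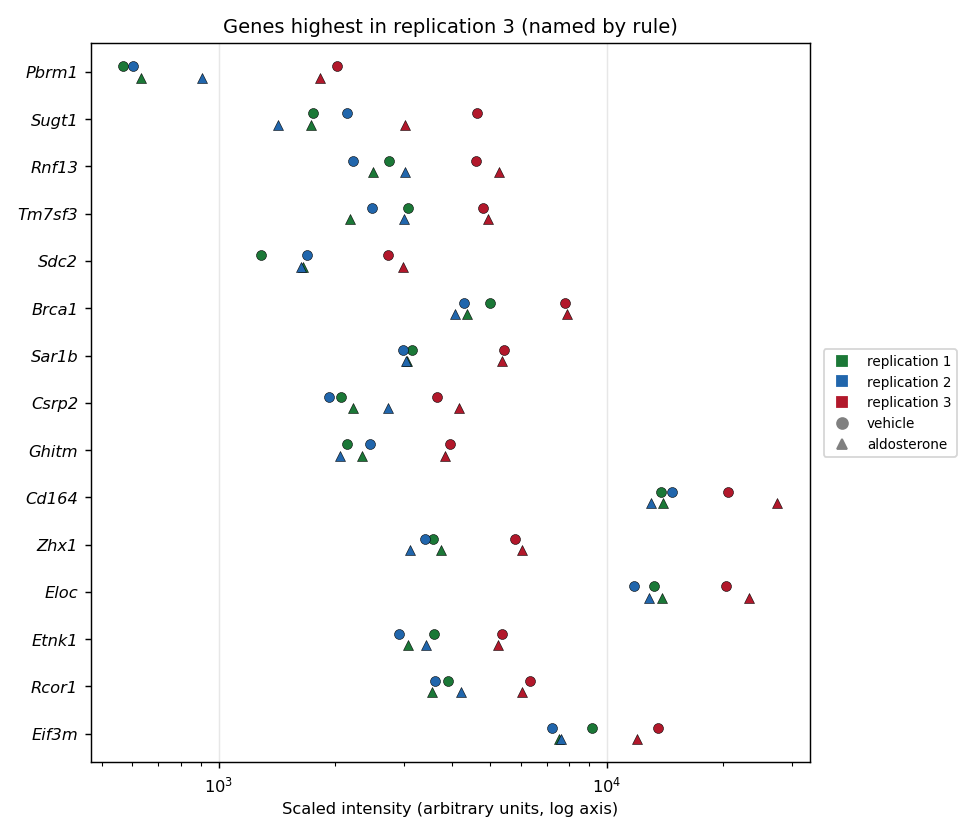
Scaled intensity (arbitrary units, log axis) of the 15 genes named as highest in replication 3, drawn as for the lowest genes. Both red points lie to the right of the 4 others for each gene, as the naming rule required, and Eloc reads 20355 and 23326 against 11765 to 13875.

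Of the cell cycle genes, 5 were higher with the block. Of 49 tested, the block called 5 higher, the mitotic genes Bub1, Mad2l1, Ccna2 and Cdk1 and the chromatin protein Hmgb2, at 0.33 to 0.63, and 1 lower, the replication helicase subunit Mcm7 (-0.41). Both arrays of replication 3 were above the rest for 15 genes (30.6%, against 17.3% of all tested genes) and below for 7 (14.3%, against 14.8%). Ccna2, the cyclin of S phase and early mitosis, read 17849, 15902, 14409 and 16073 against 20705 and 21716. With the vehicle array alone the block called 0 of the list, and with the aldosterone array alone 1.

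In the lists of glycolysis, lysosome and respiration the block called some genes too. In the hypoxia and glycolysis list it called Ldha, which makes lactate, and the mitophagy receptor Bnip3 higher (0.31 and 0.50). They were 7.14% of 28 tested, against 3.24% of all tested genes. Both arrays lay above the rest for 10 (35.7%, against 17.3%) and below for 3 (10.7%, against 14.8%). In the lysosome and autophagy list the block called Lamp2, Atp6v0b and Gabarap higher (0.56, 0.52 and 0.52), 6.98% of 43 tested. Of 46 genes of oxidative phosphorylation it called Sdhc higher (2.17%) and Atp5k, Atp5d and Uqcrq lower (6.52%, against 2.85% of all tested genes). Atp5k had means of 941 and 992 in replications 1 and 2 and of 389 in replication 3, below the filter level. It passed the filter only through replications 1 and 2 and had to differ. Of 24 ribosomal protein genes and 29 chaperone genes the block called none. The medians of these 5 lists lay between -0.07 and 0.10.

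The response to aldosterone was tested for a difference in replication 3. The interaction of treatment with replication 3 gave 0 calls (0% of 7453), and before adjustment 104 had a p under 0.05, 33 of them with a higher and 71 with a lower response. Sgk1, a kinase induced by aldosterone, was higher with aldosterone by 1.48, 1.46 and 1.96 log2 units in replications 1, 2 and 3. For Edn1, endothelin-1, the differences were 1.29, 1.16 and 1.29, and for the clock gene Per1 1.27, 1.58 and 0.92. Nadk, the kinase that makes NADP, had the smallest p of the interaction and read 1233 and 2010, then 1276 and 2096, and then 867 and 205.5 (interaction -2.52, SE 0.435; limma adjusted p = 1.0). Its value depends on the aldosterone array of replication 3, which alone lay far below the others.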

How the data were processed

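Total RNA of mIMCD3 cells given vehicle or aldosterone was hybridised to 6 arrays with 1 colour, 1 per treatment in each of 3 replications. The deposited intensities were linear, 1 per probe set and array; their software is not given in the sources used here. Each array was multiplied to a common 2% trimmed mean of 2090, by a factor of 24.2 for the aldosterone array of replication 3 and 0.838 to 0.840 for the rest. Values became log2(intensity + 53.0), the pseudocount being the 10th percentile, so fold changes of dim probe sets are understated. Tests covered the 7453 of 12422 probe sets whose mean reached 8.87 on that scale (40th percentile). Symbols came from the platform annotation: 10833 probe sets had 1, 396 several and 1193 none. The brightest probe set stood for a gene in the lists, which gave 5640 genes.

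Limma 3.58.1 in R 4.3.3 (lmFit, eBayes with an intensity trend, two-sided, Benjamini-Hochberg over all tested probe sets) estimated replication 3 minus the mean of replications 1 and 2, with treatment as covariate. The difference between replications 1 and 2 stays in the error of this fit; an alternative entered replication as a block of 3 levels. The numbers paired the arrays: each replication is 1 experiment per the labels, and same-numbered deviations from the treatment means correlated at 0.377, 0.387 and 0.471, other pairings at -0.279 to -0.0853. The fits were tested on simulated data that held no difference between replications 1 and 2. Such data cannot show how many false calls differences between replications would give.

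The members, the 30 gene lists and the motifs were chosen with earlier results of these data known. Named were the genes called, filled up to 15 per direction by smallest p among those whose 2 arrays lay outside the other 4, then called or smallest-p members of each list, the 5 smallest interaction p per direction, and Sgk1, Per1 and Edn1; genes named beyond these were chosen after their values were seen. Array number, with 2 against 4 arrays, limits the precision. Control probe sets were not analysed here. Alternatives covered scaling, pseudocount, filter, prior, treatment term, block and left-out arrays.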

Additional observations from a re-analysis of the deposited data

Results flagged for a closer look

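Among 70 probe sets examined, 2 had an array of replications 1 and 2 whose gap to its nearest neighbour exceeded Dixon's critical share of the range of the 4 arrays; by chance about 1 in 20 such groups does so. Sdc2, the surface proteoglycan syndecan-2, read 1290 on the vehicle array of replication 1, with a gap of 0.872 of the range, while both arrays of replication 3 were above all 4. For the salivary protein gene Prp2, the vehicle array of replication 2 read 579.9 (gap 0.914 of the range).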

How the results depend on the processing

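The count of 6 probe sets of the treatment fit was 5 to 8 under quantile or median scaling, other pseudocounts and the stricter filter. It became 12 with no filter, 22 with no treatment term, 444 with the replicate block, 4 with replication as a random block, 3 with the arrays of a replication averaged first, and 0 without the intensity trend, where 1024 probe sets had an unadjusted p under 0.05. Leaving out a replicate gave 0 to 819 calls: 0 to 4 when 1 array was left out, 176 without replication 1 and 819 without replication 2. The count with the block was 438 to 559 under other scalings and filters, fell to 0 without the trend (1480 at an unadjusted p under 0.05) and ran from 40 to 986 with 1 array left out; the low end is without an array of replication 1 (40 or 50). Without the vehicle or aldosterone array of replication 3 it was 182 or 171. The cause of these changes was not tested, beyond the fewer arrays. Probe sets below the other 4 numbered 1732 of 12422 with no filter, beside 1077 of 7453 with it. They numbered 1859 without the vehicle array and 1688 without the aldosterone array of replication 3, and those above 1823 and 1940. With either array left out, only 1 array has to lie outside the other 4, so these counts could not fall. The interaction gave 0 calls in all 11 alternatives.

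The median of the NF-kB list went from -0.39 to -0.31 with quantile scaling, -0.32 with no filter and -0.28 with the stricter filter, and ran from -0.40 to -0.29 with a replicate left out; that of sterol synthesis ran from -0.35 to -0.23, the latter without the aldosterone array of replication 3. Over the 30 lists, medians were recomputed 448 times and moved by more than the spread between replicates in 47; with the stricter filter no proximal tubule or endothelial gene was left. Of 1296 recomputed values of the named genes, 8 changed sign. With a replicate left out, Mprip ranged from -1.39 to 1.80 (negative without vehicle replicate 2 at -0.18, vehicle replicate 3 and replicate 2 at -0.01), Zfp787 from -3.36 to 0.0701 and Acsm2 from -2.38 to 0.80 (both positive without vehicle replicate 3), and Prp2 from -0.34 to 2.24, Usf1 from -1.51 to 0.0594 and Per1 from -0.35 to 0.15 (sign changed without aldosterone replicate 3). With all arrays the treatment fit called none of these 6 genes, while the block called a second probe set of Prp2 lower (-1.64).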
